A study of Mus musculus with 28 samples.

Results

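The gene set described here holds the matrix metalloproteases (Mmp), the ADAMTS proteases and their catalytically inactive ADAMTS-like relatives (Adamtsl), and the tissue inhibitors of metalloproteases (Timp). Its members were found by gene symbol, and 51 of the 47719 genes in the deposited tables matched: 23 Mmp, 19 Adamts, 5 Adamtsl and 4 Timp genes. Liver RNA came from male C57BL/6 mice that were about 6 weeks old when they started a diet held for 26 weeks, with 4 samples in each of 7 groups. In 6 groups the diet held 40% of its calories as fat, 22% fructose and 2% cholesterol by weight, a feeding model of non-alcoholic steatohepatitis. After it, 3 of these groups received tropifexor once a day by mouth, at 0.1 mg/kg (low dose), 0.3 mg/kg (mid dose) and 0.9 mg/kg (high dose), for 4 weeks, and 1 received obeticholic acid (OCA) at 25 mg/kg. The tropifexor vehicle and OCA vehicle groups ate the same diet and were dosed with vehicle for 4 weeks, without drug. Lean controls were fed little fat (10% of calories) and neither fructose nor cholesterol, and no dosing is listed for them. Comparisons of a vehicle group with lean livers, called diet effects below, thus differ in both diet and dosing. Diet and dosing cannot be told apart there. Tropifexor and OCA are agonists of the bile acid receptor FXR. The low, mid and high labels were matched to the listed doses in rising order.

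Matrix metalloproteases are zinc enzymes that cut collagens, elastin, laminins and many cell surface proteins, and most are made as inactive precursors. ADAMTS proteases carry thrombospondin repeats that tie them to the matrix, where they trim procollagens, cleave proteoglycans such as versican, or cut von Willebrand factor. TIMPs block these enzymes, and in scarring liver the balance between proteases and TIMPs is known to set how fast collagen is removed; hepatic stellate cells, macrophages and bile duct epithelium are all known sources.

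Each comparison was read from the authors' deposited Cuffdiff table for it, which holds 1 FPKM value per group (fragments scaled by transcript length and library size) and a test across all genes. No value per sample was analysed here and the read depth behind each value is unknown, so no spread between samples is given. The 95% intervals given with log2 fold changes were computed from the deposited test statistics, rescaled by 1 factor per table to match the deposited p-values over all genes, so an interval and a call can differ for a single gene. A gene is called higher or lower where the deposited q-value was under 0.05. Group values summed to between 706031 and 915996 FPKM. In bulk liver, fewer cells of a type and less RNA per cell cannot be told apart. The labels number the 4 samples of a group without naming animals, and how those samples entered the deposited tests is not given. The tests therefore cannot be said to measure the spread between animals.

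Of the 51 members, 24 were tested in all 10 comparisons, 7 in some and 20 in none. Members tested in none reached at most 0.240 FPKM in any group, and Adamts19 and Mmp1b were listed at 0 in every table. The collagenases Mmp1a and Mmp8, the stromelysins Mmp3 and Mmp10, and Timp4 were among the genes never tested. In lean livers the highest members were Mmp14, the membrane-anchored protease that activates the gelatinase precursor, at 17.6 FPKM and Mmp19 at 15.7 FPKM. Mmp15, another membrane-type protease, stood at 9.19, Timp3 at 6.65 and Timp2 at 5.13 FPKM in the same lean livers. Several members overlap a gene on the opposite strand, and no source at hand says whether reads were counted by strand. This holds for Timp1 (inside Syn1), Timp3 (Syn3), Adamts7 (Tbc1d2b), Mmp11 (Chchd10), Mmp19 (Tmem198b) and Mmp7 (AV064505), so their values are uncertain. Mmp12 overlaps Mmp1b, and Timp2 overlaps Cep295nl on the same strand.

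In the mouse genome, 10 of the 23 Mmp genes lie side by side on chromosome 9, over 427 kb (GRCm38, chr9:7272514-7699585): Mmp13, Mmp12, Mmp1b, Mmp3, Mmp1a, Mmp10, Mmp8, Mmp27, Mmp20 and Mmp7. Mmp13, Mmp12 and Mmp7, described below, are in this cluster. Only Mmp13, Mmp12, Mmp27 and Mmp7 of these 10 genes were tested in any comparison. The promoters of these 4 are shown because the genes are neighbours that differ in response. Each runs from 100 bases before to 50 bases after the RefSeq transcription start (GRCm38.p6, plus strand, 5′ to 3′). Capitals mark TGAGTCA or its reverse complement TGACTCA, the consensus of the AP-1 factors Fos and Jun, which is a known element of metalloprotease promoters.
Mmp13: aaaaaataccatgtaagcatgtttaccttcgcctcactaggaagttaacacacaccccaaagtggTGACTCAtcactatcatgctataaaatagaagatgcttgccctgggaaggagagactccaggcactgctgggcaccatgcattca
Mmp12: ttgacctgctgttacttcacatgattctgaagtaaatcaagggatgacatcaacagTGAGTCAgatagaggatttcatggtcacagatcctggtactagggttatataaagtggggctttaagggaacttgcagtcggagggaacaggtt
Mmp27: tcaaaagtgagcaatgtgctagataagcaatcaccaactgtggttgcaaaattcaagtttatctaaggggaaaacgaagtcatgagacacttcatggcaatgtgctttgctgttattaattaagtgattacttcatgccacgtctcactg
Mmp7: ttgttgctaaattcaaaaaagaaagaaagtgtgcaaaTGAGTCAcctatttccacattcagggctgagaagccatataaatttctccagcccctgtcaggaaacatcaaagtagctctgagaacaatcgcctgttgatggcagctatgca
The Mmp13 sequence is at chr9:7272414-7272563, that of Mmp12 (the downstream of its 2 listed starts) at chr9:7347274-7347423, that of Mmp27 at chr9:7571296-7571445 and that of Mmp7 (the upstream of its 2 listed starts) at chr9:7691990-7692139. The motif starts 35 bases before the transcription start in Mmp13, 44 before it in Mmp12 and 63 before it in Mmp7. The longer windows in the RefSeq table run from 250 bases before to 50 after each start, and 36 members had at least 1 such window. Searched on both strands, the motif was in a window of 7 of the 10 clustered Mmp genes and of 0 of the other 26 members. Counted by window, 7 of 39 member windows held it, beside 5.20% of 32851 windows of all genes. The 7 genes were Mmp13, Mmp12, Mmp1b, Mmp3, Mmp1a, Mmp10 and Mmp7, of which Mmp1b, Mmp3, Mmp1a and Mmp10 were not tested in any comparison. Mmp27 had no match in this window. The windows of the other listed start of Mmp12 and of Mmp7 had none either, so the starts printed for these 2 genes are those with the motif. A match is a description of these letters and not of a bound site, and any part of the motif in the responses was not tested.

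Many of the proteases, and 2 of the inhibitors in at least 1 vehicle group, were higher on the diet. Against lean livers, 15 of the 29 tested members were called higher and 1 lower in OCA vehicle livers, where 11.4% of all tested genes were called higher and 6.56% lower. In tropifexor vehicle livers 13 of 28 were called higher and 1 lower, beside 12.1% and 8.53% of all tested genes. The median log2 fold change of the tested members was 0.91 in OCA vehicle livers and 0.85 in tropifexor vehicle livers, beside 0.02 and 0.01 over all genes. The 13 in tropifexor vehicle livers were Mmp2, Mmp12, Mmp13, Mmp15, Mmp23, Mmp27, Timp2, Adamts2, Adamts5, Adamts9, Adamts10, Adamts15 and Adamtsl2. The 15 in OCA vehicle livers were these without Adamts2 and with Mmp7, Timp3 and Adamts14. Adamts6 was the member called lower in each table. Both tables use the same lean livers, so their calls are not independent of each other.

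The collagenase Mmp13, which cuts fibrillar collagen and is the main interstitial collagenase of rodents, had 1.92 FPKM in OCA vehicle livers, against 0.160 in lean livers. In tropifexor vehicle livers it had 1.88 FPKM, against 0.161 in lean livers, a log2 fold change of 3.54 (95% interval 3.03 to 4.05). On the linear scale the Mmp13 level was 12 times the lean level in OCA vehicle livers and 11.7 times in tropifexor vehicle livers. The macrophage elastase Mmp12 had 24.7 FPKM in OCA vehicle livers and 24.8 FPKM in tropifexor vehicle livers, against 1.68 and 1.69 FPKM in lean livers as given in those same tables. Its log2 fold change was 3.88 in OCA vehicle livers (3.49 to 4.26) and 3.88 in tropifexor vehicle livers (3.47 to 4.29). These were the largest called diet changes among the members.

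Gelatinase A, Mmp2, which degrades denatured collagen and basement membrane and is made by activated stellate cells, had 4.42 FPKM in tropifexor vehicle livers, against 1.07 in lean livers (2.05 on the log2 scale, 1.74 to 2.36). In OCA vehicle livers it had 3.72 FPKM, against 1.06 in lean livers. Its relative Mmp9, gelatinase B, had 0.279 FPKM in OCA vehicle livers, against 0.250 in lean livers, and was not tested in tropifexor vehicle livers. Mmp14, which activates Mmp2, had 17.7 FPKM in tropifexor vehicle livers, against 17.6 in lean livers, with an interval of the log2 change of -0.27 to 0.27. Among the membrane-type enzymes Mmp15 was called higher, at 12.9 FPKM in tropifexor vehicle livers, against 9.19 in lean livers. Matrilysin, Mmp7, a small epithelial protease, had 1.41 FPKM in OCA vehicle livers, against 0.608 in lean livers, and was called higher there. In tropifexor vehicle livers it had 0.999 FPKM, against 0.610 in lean livers, and was not called (deposited q 0.0892). Mmp23 and Mmp27 rose in both vehicle groups, with log2 fold changes of 1.75 and 2.17 in tropifexor vehicle livers.

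Of the inhibitors, Timp2, which inhibits metalloproteases and also joins Mmp14 in activating Mmp2, had 8.99 FPKM in tropifexor vehicle livers, against 5.13 in lean livers (0.81, 0.52 to 1.10). Timp3, the matrix-bound inhibitor that also blocks ADAM and ADAMTS enzymes, had 9.12 FPKM in OCA vehicle livers, against 6.62 in lean livers, and was called higher in that group alone. Timp1, the classic inhibitor raised in scarring liver, had the largest fold of the Timp genes and was not called. It had 6.27 FPKM in OCA vehicle livers, against 0.426 in lean livers (deposited q 0.0797). In tropifexor vehicle livers it had 7.05 FPKM, against 0.429 in lean livers (deposited q 0.0507). The Timp1 log2 fold changes of 3.88 and 4.04 had wide intervals, 1.07 to 6.69 and 1.12 to 6.96, and the tables give Timp1 a locus joined with Araf and Syn1.

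Among the ADAMTS proteases, 3 of the proteoglycan-cleaving enzymes rose in both vehicle groups. Adamts15 had 0.567 FPKM in tropifexor vehicle livers, against 0.164 in lean livers (1.79, 1.39 to 2.2). Adamts5, the main aggrecan-cleaving enzyme of mouse cartilage, had 0.554 FPKM in tropifexor vehicle livers, against 0.255 in lean livers. Adamts9 had 0.807 FPKM, against 0.370 in lean livers, in the same comparison. All of these stood under 1 FPKM, unlike Adamtsl2, a secreted fibrillin-binding protein without protease activity, which had 9.62 FPKM in tropifexor vehicle livers, against 3.24 in lean livers. The procollagen N-proteinase Adamts2, which removes the amino-terminal propeptide of fibrillar procollagens, had 2.64 FPKM in tropifexor vehicle livers, against 1.0 in lean livers. Adamts2 was called there (deposited q 0.0161) although its interval, -0.07 to 2.86, reached 0. Its relative Adamts14 was called higher in OCA vehicle livers only, at 0.478 FPKM, against 0.303 in lean livers. Adamts6 was lower, at 0.205 FPKM in tropifexor vehicle livers, against 0.523 in lean livers (-1.35, -1.81 to -0.89). Adamts13, the von Willebrand factor protease that stellate cells are known to make, had 1.75 FPKM in tropifexor vehicle livers, against 1.98 in lean livers, and was not called.

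**Figure D1:**
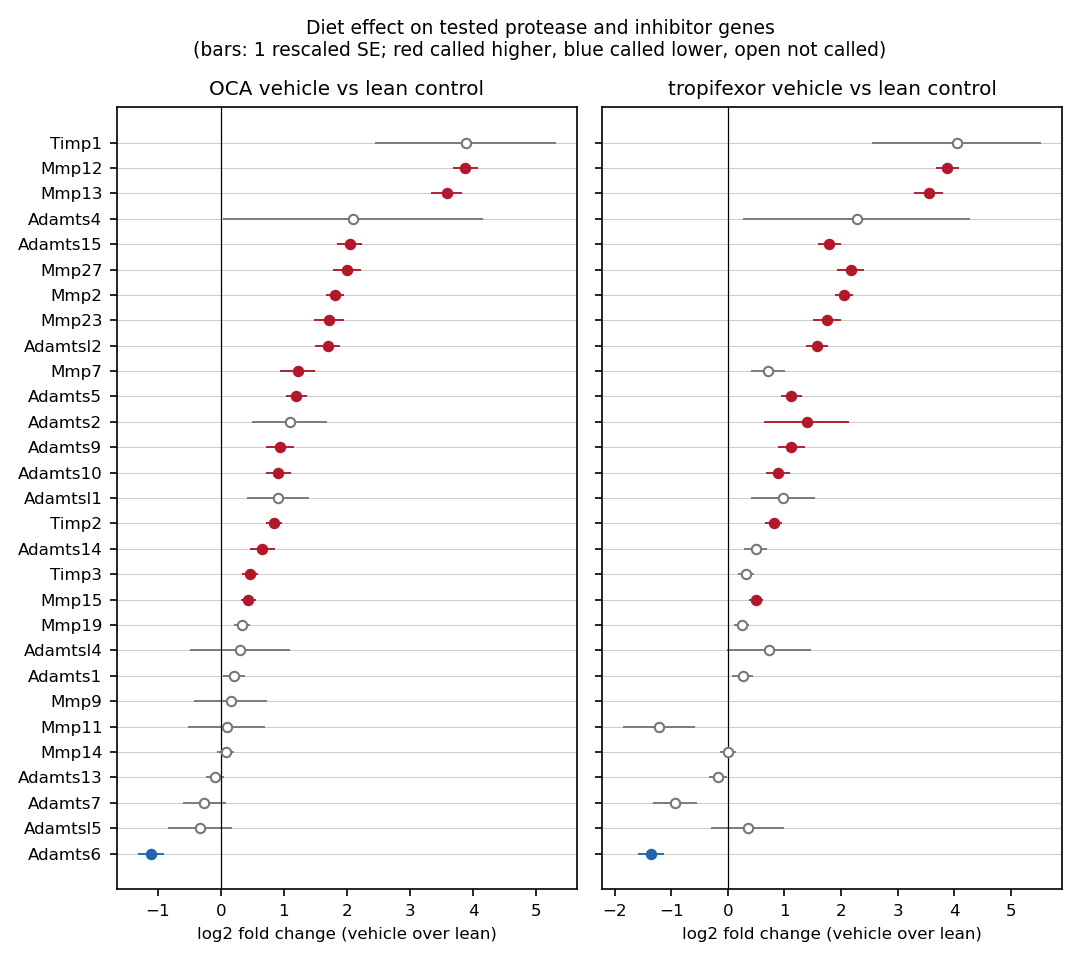
Log2 fold change of each tested member in OCA vehicle livers (left) and tropifexor vehicle livers (right) over lean livers, with bars of 1 rescaled standard error. Filled red points were called higher, filled blue points lower and open points were not called; Mmp12 and Mmp13 are the highest called points in both panels, and Timp1 is as high with a much longer bar.

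The diet effects of the vehicle groups were also compared with each other. Both effects share the lean livers, which makes the summed variance larger, so a difference can be missed. Of the 28 members tested in both tables, 0 differed by a normal test of the difference with Benjamini-Hochberg adjustment, and 0 had an unadjusted p under 0.05, beside 0.381% of all genes called. The difference, tropifexor vehicle minus OCA vehicle, was 0.00 for Mmp12 (95% interval -0.56 to 0.56) and 0.24 for Mmp2 (-0.19 to 0.67). For Timp1 it was 0.16, with a wide interval of -3.89 to 4.21. For Mmp7, Timp3, Adamts14 and Adamts2, which were called in 1 vehicle group only, no difference between the groups was shown; for Mmp7 it was -0.51 (-1.31 to 0.30).

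Markers of several liver cell types differed between vehicle and lean livers as well. Of 13 macrophage markers, 9 were called higher and 1 lower in tropifexor vehicle livers, and their levels summed to 384 FPKM, against 182 in lean livers; in OCA vehicle livers 10 were higher and 1 lower, with sums of 396 and, in lean livers, 181 FPKM. Of 12 stellate cell and fibroblast markers, 6 were higher and 0 lower in each vehicle group, summing to 361 FPKM in tropifexor vehicle livers, against 182 in lean livers. The macrophage marker Gpnmb had 18.7 FPKM in tropifexor vehicle livers, against 0.273 in lean livers. None of these macrophage or stellate cell markers was at 0 in both groups. Of 6 bile duct epithelium markers, 5 were tested in tropifexor vehicle livers, where 2 (Spp1 and Epcam) were higher and 1 (Krt19) lower, and the list summed to 173 FPKM, against 39.7 in lean livers, most of it from Spp1. Of the tested T cell and NK cell markers 3 of 5 were higher and 0 lower, and of the neutrophil markers 2 of 4 were higher and 0 lower, with Ly6g at 0 in both groups. In the same comparison 6 of 7 hepatocyte markers and 2 of 6 endothelial markers were lower and 0 higher; in OCA vehicle livers 1 of 7 hepatocyte and 2 of 6 endothelial markers were lower. The part of any of these cells in the protease changes was not tested. Among 26 listed substrates of these enzymes, 15 of 21 tested were called higher and 1 lower in tropifexor vehicle livers, among them Vcan, which encodes versican and had 0.586 FPKM, against 0.0550 in lean livers. The substrate list shares Col1a1, Col3a1, Lum and Dcn with the stellate cell list, so the counts of these lists are not separate.

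At the mid and high doses of tropifexor most of the tested members were lower than in tropifexor vehicle livers. At the mid dose 16 of 27 tested members were called lower and 2 higher, while 15.7% of all tested genes were called lower and 11.8% higher. At the high dose 17 of 27 were lower and 2 higher, beside 15.5% and 9.93% of all tested genes. The member medians were -0.89 and -0.84 on the log2 scale, against -0.01 and -0.05 over all genes. The 16 at the mid dose were Mmp2, Mmp7, Mmp12, Mmp13, Mmp14, Mmp15, Mmp23, Mmp27, Timp2, Timp3, Adamts2, Adamts5, Adamts10, Adamts13, Adamts14 and Adamtsl2, and the 17 at the high dose were these without Mmp7 and with Adamts1 and Adamtsl5. The doses share their vehicle livers with each other and with the diet comparison, so the calls of these tables are not independent, and the values below stand side by side.

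Mmp13 had 0.259 FPKM at the mid dose, against 1.87 in vehicle livers, and 0.244 FPKM at the high dose, against 1.95 in vehicle livers in that table. The log2 fold change at the high dose was -2.99 (-3.48 to -2.50). Mmp12 had 3.57 FPKM at the mid dose, against 24.7 in vehicle livers, and 4.98 FPKM at the high dose, against 25.7 in vehicle livers, with log2 fold changes of -2.79 (-3.13 to -2.45) and -2.37 (-2.82 to -1.92). Mmp13 and Mmp12 had the lowest called fold changes of the set at both doses.

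Mmp2 had 1.02 FPKM at the mid dose, against 4.41 in vehicle livers, and 1.30 FPKM at the high dose, against 4.59 in vehicle livers (-1.82, -2.14 to -1.51). Its activator Mmp14, which had not changed detectably with diet, was lower as well, at 13.5 FPKM at the high dose, against 18.3 in vehicle livers (-0.44, -0.72 to -0.16). Mmp23, at 1.25 FPKM against 2.80 in vehicle livers, and Mmp27, at 0.731 against 1.78 FPKM in vehicle livers, were lower at the high dose. Mmp15 had the smallest called fall, -0.32 at the high dose (-0.56 to -0.07), with a deposited q of 0.0479.

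Of the inhibitors, Timp2 and Timp3 fell at both doses. Timp2 had 4.39 FPKM at the mid dose, against 8.96 in vehicle livers, and 4.76 FPKM at the high dose, against 9.32 in vehicle livers (-0.97, -1.26 to -0.68). Timp3 had 4.45 FPKM at the mid dose, against 8.26 in vehicle livers, and 5.06 FPKM at the high dose, against 8.59 in vehicle livers (-0.76, -1.05 to -0.48). Timp1 had 1.01 FPKM at the mid dose, against 7.02 in vehicle livers, and 1.13 FPKM at the high dose, against 7.30 in vehicle livers. Neither Timp1 difference was called (deposited q 0.186 at the mid dose and 0.319 at the high dose). Timp4 was at or under 0.0246 FPKM in every table.

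Among the ADAMTS genes, Adamts5 showed the largest called fall at the high dose, to 0.128 FPKM, against 0.574 in vehicle livers (-2.16, -2.59 to -1.74); at the mid dose it had 0.336 FPKM, against 0.552 in vehicle livers. Adamts1, its neighbour on chromosome 16 and a versican-cleaving protease, was called at the high dose only, at 2.78 FPKM, against 4.13 in vehicle livers. Both procollagen N-proteinases that were tested fell at both doses. Adamts2 had 0.768 FPKM at the high dose, against 2.74 in vehicle livers, and Adamts14 had 0.248 FPKM, against 0.445 in vehicle livers. Adamts13 was lower at all 3 doses: 1.22 FPKM at the low dose, against 1.99 in vehicle livers, 1.22 at the mid dose, against 1.74, and 1.14 at the high dose, against 1.81 in vehicle livers. Adamtsl2, which lies 69.8 kb from Adamts13 on chromosome 2, had 2.94 FPKM at the mid dose, against 9.58 in vehicle livers, and 4.56 at the high dose, against 9.97 in vehicle livers. Adamtsl5 was called lower at the high dose only, at 0.305 FPKM, against 0.905 in vehicle livers. Adamts10, a fibrillin-binding family member, was lower at all 3 doses, with log2 fold changes of -0.97, -1.50 and -1.24 at the low, mid and high dose.

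Adamts15 and Adamts7 went the other way and rose at all 3 doses. Adamts15 had 3.98 FPKM at the low dose, against 0.647 in vehicle livers, 2.87 at the mid dose, against 0.566, and 3.46 at the high dose, against 0.589 in vehicle livers. Its log2 fold changes were 2.62 (2.19 to 3.05), 2.34 (2.03 to 2.65) and 2.55 (2.24 to 2.87), whose intervals overlap. Diet and tropifexor thus both went with a higher Adamts15 level. Adamts7, which cleaves cartilage oligomeric matrix protein, had 11.1 FPKM at the low dose, against 2.84 in vehicle livers, 16.4 at the mid dose, against 2.48, and 15.9 at the high dose, against 2.58 in vehicle livers. Its log2 fold change at the high dose was 2.62 (1.92 to 3.33). Adamts7 overlaps Tbc1d2b on the opposite strand, so its level is uncertain in the sense given above.

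Markers of several cell types were lower at these doses too. At the mid dose 11 of 13 macrophage markers were lower and 0 higher (194 FPKM in sum, against 382 in vehicle livers), and at the high dose 8 were lower and 0 higher (278 against 397 FPKM in vehicle livers). Of 12 stellate cell and fibroblast markers, 11 were lower at each of these doses, summing to 143 FPKM at the mid dose, against 360 in vehicle livers, and 179 FPKM at the high dose, against 374 in vehicle livers. No marker of either list was at 0 in both groups. Of the T cell and NK cell markers 3 of 5 tested were lower at the mid dose and 4 of 5 at the high dose, and of 6 endothelial markers 4 were lower at the mid dose and 3 at the high dose. Of the neutrophil markers 3 of 5 tested were lower at the mid dose and 0 at the high dose, with Ly6g at 0 in both groups of both tables. Of 7 hepatocyte markers 2 were higher and 2 lower at the mid dose, and 1 was higher and 3 lower at the high dose. The part of any of these cells in the protease falls was not tested. Of the listed substrates, 14 of 21 tested fell at the high dose and 0 rose. The substrates shared with the stellate cell list are counted in both lists. Tnc, encoding the matrix protein tenascin C, had 0.134 FPKM at the high dose, against 1.58 in vehicle livers. Of the 9 tested ADAM proteases, a related family of membrane sheddases, 5 were lower and 0 higher at each of the mid and high doses. Of 19 listed inhibitors and partners of matrix proteases outside the set, 13 were tested, of which 1 was higher and 6 lower at the high dose than in vehicle livers, and 8 were higher and 2 lower in tropifexor vehicle livers than in lean livers. The 1 higher at the high dose was Reck, a membrane-anchored inhibitor of metalloproteases, which had 8.16 FPKM at the high dose, against 1.30 in vehicle livers, and 1.26 FPKM in tropifexor vehicle livers, against 2.64 in lean livers. In OCA livers Reck had 1.96 FPKM, against 1.18 in OCA vehicle livers, and was called higher.

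**Figure D2:**
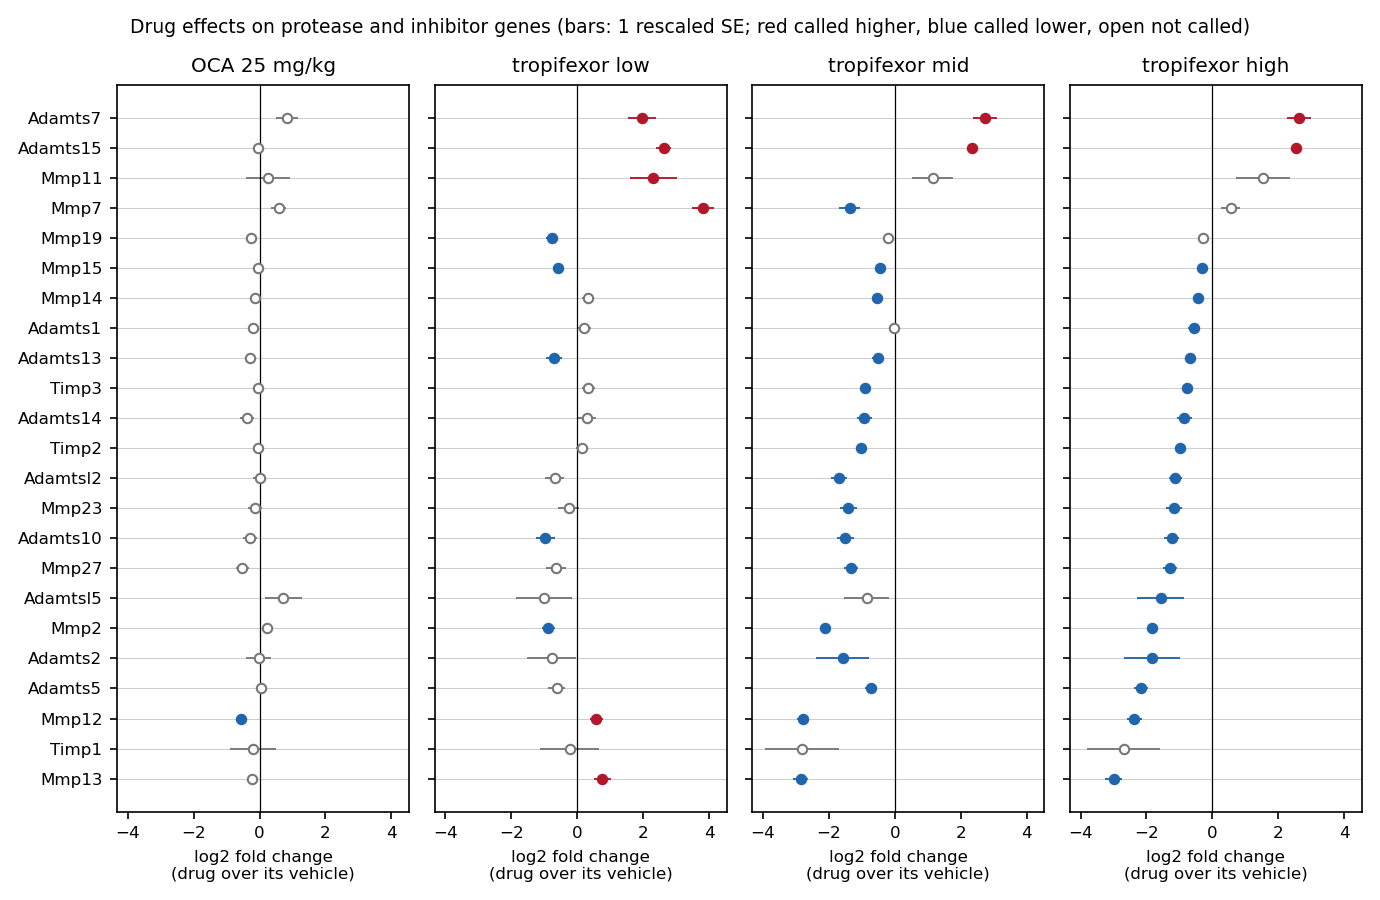
Log2 fold change over the matching vehicle for the members called under a drug, and Timp1, with OCA and the low, mid and high doses of tropifexor in separate panels and bars of 1 rescaled standard error. Filled red and blue points were called higher and lower; the mid and high panels hold 16 and 17 blue points, the low panel 6 red and 5 blue points and the OCA panel 1 blue point.

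The low dose gave a mixed picture. Of 30 tested members 6 were called higher and 5 lower than in tropifexor vehicle livers, beside 6.03% and 5.2% of all tested genes. Those higher were Mmp7, Mmp11, Mmp12, Mmp13, Adamts7 and Adamts15, and those lower were Mmp2, Mmp15, Mmp19, Adamts10 and Adamts13. The member median was 0.08 on the log2 scale, against 0.00 over all genes.

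Mmp7 changed most at this dose, to 16.0 FPKM, against 1.13 in vehicle livers (3.82, 3.19 to 4.45). It was lower at the mid dose, at 0.384 FPKM, against 0.994 in vehicle livers (-1.37, -1.99 to -0.75), and had 1.53 FPKM at the high dose, against 1.03 in vehicle livers, where it was not called. The Mmp7 level was therefore not ordered by dose. Of 6 bile duct epithelium markers, 4 were higher and 0 lower at the low dose, and they summed to 312 FPKM, against 196 in vehicle livers, most of it from Spp1. Without Spp1, the largest called changes were those of Epcam, with 7.58 FPKM at the low dose, against 2.45 in vehicle livers, and Krt19, with 6.41 against 2.75 FPKM in vehicle livers. At the mid dose 2 of these markers were lower and 0 higher, and at the high dose 1 was lower and 0 higher. None of the 6 was at 0 in both groups, and the part of bile duct cells in the Mmp7 difference was not tested.

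Mmp13 had 3.64 FPKM at the low dose, against 2.14 in vehicle livers (0.77, 0.28 to 1.25). Mmp12 had 42.4 FPKM, against 28.3 in vehicle livers (0.58, 0.20 to 0.97). Both were thus higher at the low dose and lower at the mid and high doses, but with a q threshold of 0.01 the low-dose calls of Mmp12, Mmp13 and Mmp11 were lost. Mmp11, stromelysin-3, had 2.53 FPKM at the low dose, against 0.509 in vehicle livers (2.31, 0.91 to 3.71). Mmp2 was lower, at 2.75 FPKM against 5.04 in vehicle livers, and so was Mmp19, which had 12.4 FPKM, against 21.2 in vehicle livers, and was called at no other dose. Timp2 had 11.3 FPKM at the low dose, against 10.2 in vehicle livers, and was not called. Timp3 had 12 FPKM, against 9.44 in vehicle livers, and was not called. Of the 13 macrophage markers 1 was higher and 0 lower at this dose (474 FPKM in sum, against 437 in vehicle livers), and of the 12 stellate cell markers 5 were lower. Of 7 hepatocyte markers 3 were lower, and of 6 endothelial markers 1 was lower. Of the listed regulators of metalloprotease genes, 5 of 23 tested were higher and 0 lower, with the AP-1 subunit Fosl1 at 1.79 FPKM, against 0.453 in vehicle livers. In the same list, 10 of 21 tested were higher and 1 lower in tropifexor vehicle livers than in lean livers. Over vehicle livers, 3 of 21 were higher and 10 lower at the mid dose, and 1 was higher and 7 lower at the high dose. Spp1 is in both this list and the bile duct list. The part of these regulators in the protease differences was not tested.

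**Figure D3:**
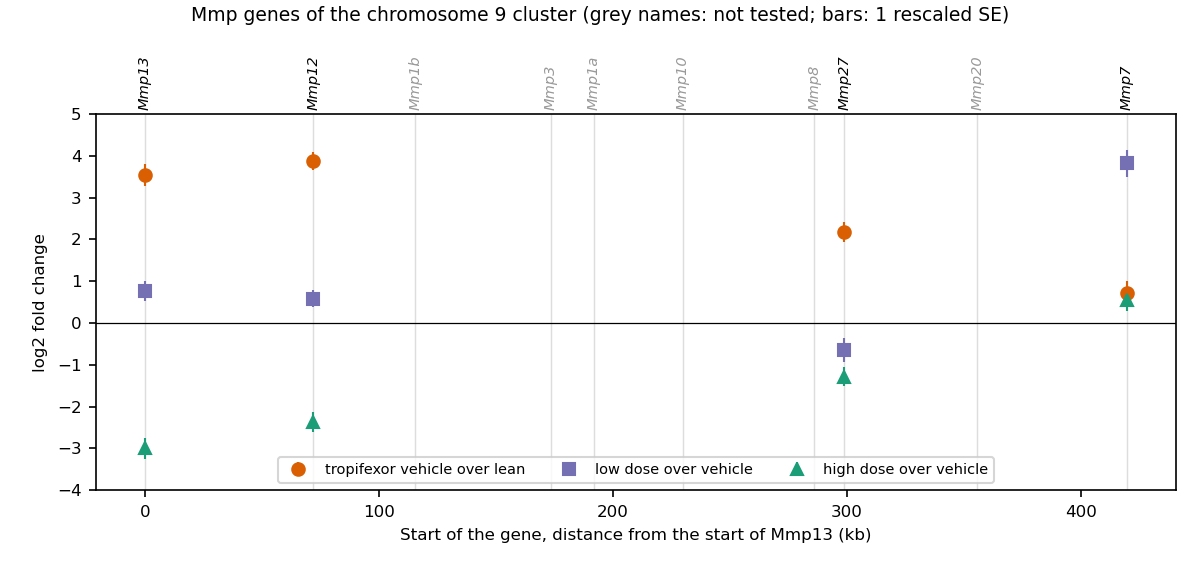
Log2 fold changes of the tested Mmp genes of the chromosome 9 cluster against the distance of their start from that of Mmp13 in kb, with bars of 1 rescaled standard error. Circles are tropifexor vehicle over lean livers, squares the low dose and triangles the high dose over tropifexor vehicle; Mmp13, Mmp12 and Mmp27 lie above 0 with diet and below 0 at the high dose, while the Mmp7 square stands at 3.82.

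The highest and lowest doses were compared directly. The shared vehicle group on its own makes the summed variance conservative. The rescaling works the other way, since it divides each standard error by 2.03 to 2.05. Whether the test as run is conservative is therefore not known. Of 27 members, 9 differed by the normal test with Benjamini-Hochberg adjustment over all genes, all in the direction of a lower level at the high dose, beside 5.63% of all genes called either way. These were Mmp2, Mmp7, Mmp12, Mmp13, Mmp14, Timp2, Timp3, Adamts5 and Adamts14. The high minus low difference was -3.76 for Mmp13 (-4.45 to -3.07), -3.26 for Mmp7 (-4.10 to -2.42), -1.11 for Timp2 (-1.58 to -0.64) and -1.11 for Timp3 (-1.59 to -0.62). For Adamts15 it was -0.07 (-0.60 to 0.46) and for Adamts13 0.03 (-0.55 to 0.61), and neither was called. With standard errors taken straight from the test statistics, 2 of the 9 differences, those of Mmp12 and Mmp13, were called.

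With OCA at 25 mg/kg few genes were called, and members were called about as often as all tested genes. Against OCA vehicle livers, 0 of 31 tested members were called higher and 1 lower by Cuffdiff, beside 1.81% and 2.23% of all tested genes, and at an unadjusted p under 0.05 there were 3 higher and 2 lower. The member called was Mmp12, with 17.6 FPKM in OCA livers, against 26.3 in OCA vehicle livers (-0.58, -0.86 to -0.30). Mmp13 had 1.75 FPKM in OCA livers, against 2.04 in OCA vehicle livers (-0.55 to 0.10). Mmp2 had 4.6 FPKM, against 3.96 in OCA vehicle livers (-0.05 to 0.48). Timp2 had 9.49 FPKM, against 9.73 in OCA vehicle livers (-0.28 to 0.21). These intervals all span 0. Adamts6 had 0.421 FPKM in OCA livers, against 0.258 in OCA vehicle livers, with a deposited q of 0.0796. The log2 fold change with OCA was 0.82 for Adamts7 and 0.58 for Mmp7, and neither was called. Of the 13 macrophage markers 4 were lower, 0 higher and 9 not called with OCA (315 FPKM in sum, against 422 in OCA vehicle livers). The 4 were Adgre1, Csf1r, Vsig4 and Timd4. Trem2, at 10.1 FPKM against 10.1 in OCA vehicle livers, and Gpnmb, at 13.0 against 15.7, were not called. The part of macrophages in the Mmp12 difference was not tested. Of the T cell and NK cell markers 3 of 5 tested, and of the endothelial markers 2 of 6, were also lower, and 2 of 5 tested bile duct markers were higher. Of the stellate cell markers 1 was higher and 0 lower.

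The effect of high-dose tropifexor differed from that of OCA for 11 of 27 members by the normal test with Benjamini-Hochberg adjustment, beside 11.4% of all genes. The compounds were given at different doses (0.9 and 25 mg/kg) and each effect was taken over its own vehicle. The difference, tropifexor minus OCA, was below 0 for Mmp2, Mmp12, Mmp13, Mmp23, Timp2, Timp3, Adamts5, Adamts10 and Adamtsl2, and above 0 for Adamts7 and Adamts15. It was -2.77 for Mmp13 (-3.36 to -2.18), -2.04 for Mmp2 (-2.45 to -1.63), -0.93 for Timp2 (-1.31 to -0.56) and 2.60 for Adamts15 (2.15 to 3.05). For Mmp15 the difference was -0.27 (-0.61 to 0.07) and for Mmp14 -0.30 (-0.69 to 0.08), and neither was called. With standard errors not rescaled, 4 were called, Mmp2, Mmp13, Adamts5 and Adamts15.

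Against lean livers, 14 of 29 tested members were higher in OCA livers and 0 lower by Cuffdiff (1 lower at an unadjusted p under 0.05), beside 10.3% and 6.5% of all tested genes. The 14 were Mmp2, Mmp7, Mmp12, Mmp13, Mmp15, Mmp23, Mmp27, Timp2, Timp3, Adamts5, Adamts9, Adamts10, Adamts15 and Adamtsl2. All comparisons with lean livers share those lean samples. In low-dose livers 14 of 30 were higher and 3 lower than in lean livers, beside 13.8% and 10.1% of all genes. Timp1 was among them, at 6.26 FPKM, against 0.448 in lean livers (deposited q 0.0400), the one comparison that called it. In mid-dose livers 6 of 26 were higher and 4 lower, beside 11.7% and 11.5% of all genes. In high-dose livers 7 of 25 were higher and 4 lower, beside 12.2% and 15.2% of all genes. The member medians against lean were -0.02 at the mid dose and 0.21 at the high dose, against 0.81 in OCA livers.

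The 7 members above lean at the high dose were Mmp7, Mmp12, Mmp27, Adamts7, Adamts9, Adamts15 and Adamtsl1, and the 6 at the mid dose were these without Mmp7. Mmp12 had 4.58 FPKM in high-dose livers, against 1.63 in lean livers (1.49, 0.95 to 2.04). Adamts15 had 3.18 FPKM in high-dose livers, against 0.158 in lean livers (4.33, 3.96 to 4.71). Mmp2 had 1.19 FPKM, against 1.03 in lean livers, and its interval, -0.12 to 0.55, held 0; Mmp13 was not tested, at 0.225 FPKM against 0.155 in lean livers. Members below lean at the high dose were Mmp14, Timp3, Adamts6 and Adamts13. Timp3 had 4.65 FPKM in high-dose livers, against 6.41 in lean livers (-0.46, -0.71 to -0.21). Adamts13 had 1.05 FPKM, against 1.91 in lean livers (-0.86, -1.17 to -0.55). Adamts7 stood above lean at all 3 doses, at 14.6 FPKM in high-dose livers, against 4.58 in lean livers.

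**Figure D4:**
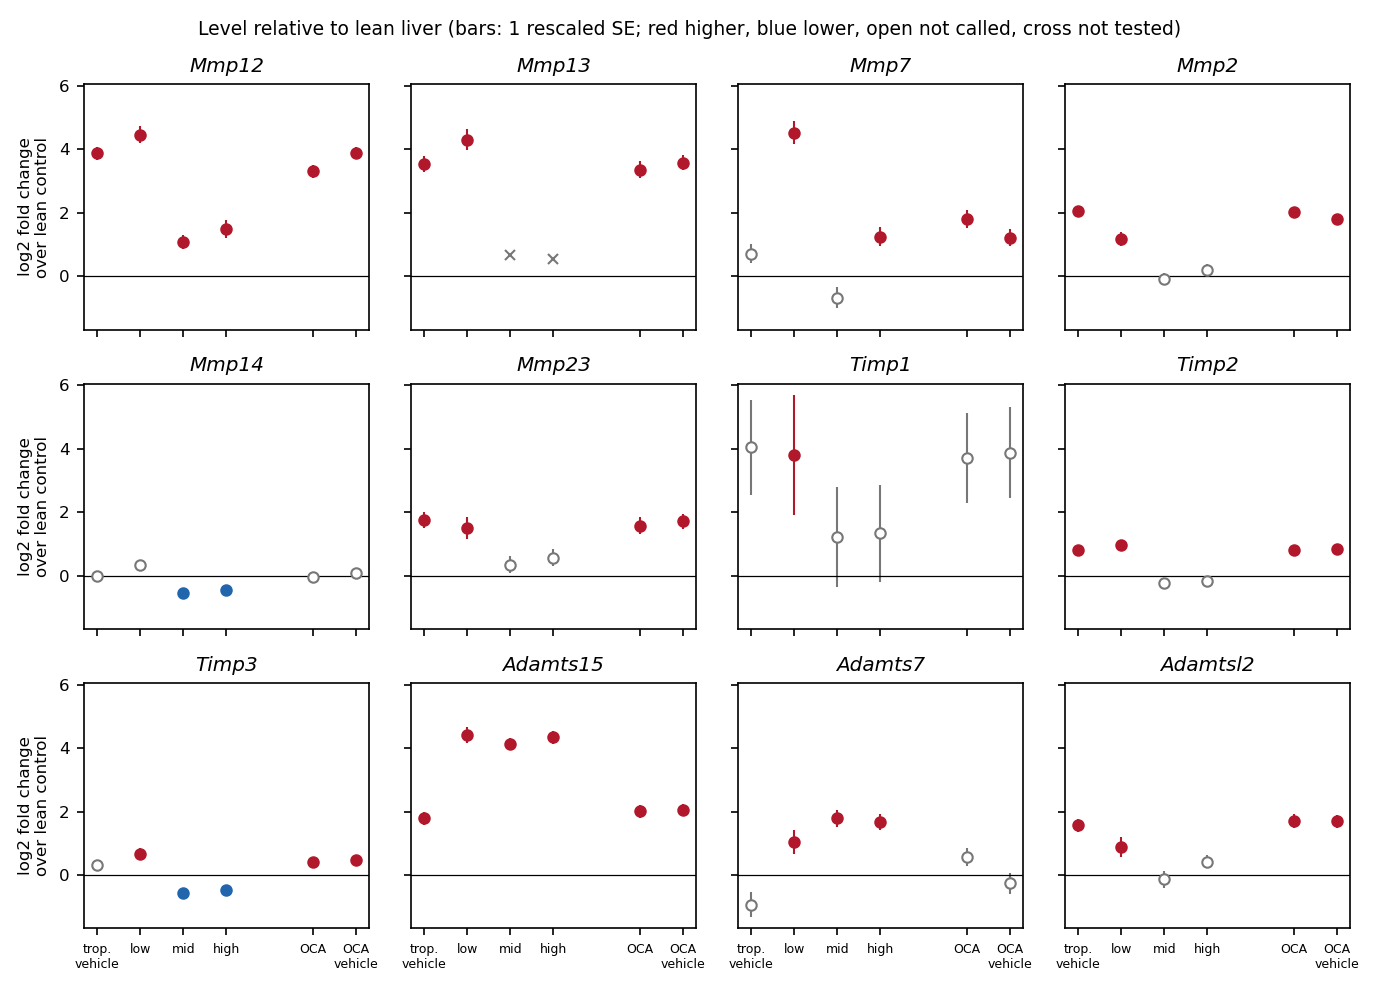
Log2 fold change over lean livers of 12 members in tropifexor vehicle livers, at the low, mid and high dose, and in OCA and OCA vehicle livers, with bars of 1 rescaled standard error; red was called higher, blue lower, open points were not called and crosses were not tested. The Mmp12, Mmp13 and Mmp2 points are lower at the mid than at the low dose, with Mmp13 not tested at the mid dose, and Adamts15 stays above 4 at every dose. Most OCA points lie near those of OCA vehicle, while Adamts7 is at 0.57 with OCA and at -0.26 with OCA vehicle, neither of them called.

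Other protease systems held calls in both directions. Of the plasminogen activator system, which starts one route of metalloprotease activation, 4 of 9 tested genes were higher and 3 lower in tropifexor vehicle livers than in lean livers, and 1 was higher and 3 lower at the high dose than in vehicle livers. Over all tested genes 12.1% were higher and 8.53% lower in the diet comparison, and 9.93% higher and 15.5% lower at the high dose. Of the cathepsins and cystatins, 4 of 15 were higher and 2 lower in tropifexor vehicle livers than in lean livers, and 1 of 16 was higher and 7 lower at the high dose. The collagen-cutting cathepsin Ctsk had 0.961 FPKM at the high dose, against 2.26 in vehicle livers.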

How the data were processed

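Liver RNA sequencing was read from 10 gene tables, each comparing 2 groups. Per the submitters' processing notes, the tools used upstream include bcl2fastq, STAR 2.5.1b, Cufflinks 2.2.1, Cuffnorm and Cuffdiff with the mouse build GRCm38; their roles and order are not given there. Per the labels' protocols, stranded mRNA libraries were made from Trizol-extracted RNA. Per the file headers, the authors deposited 1 FPKM value per gene and group, a log2 fold change and a test statistic (signed scores, since values against near-zero groups run to extremes), a p-value and a q-value. The deposited FPKM values of 1 group differ between tables by a constant of up to 0.188 on the log2 scale, so tests stay within a table. The vehicle of each drug table was taken to be the one named for that drug, and its FPKM profile was checked against the vehicle tables: after the constant, the median deviation over genes between tables of 1 group was 0.000980 or less on the log2 scale, and that between the 2 vehicle groups was 0.0912. Columns named INT were read as OCA (INT-747). Vehicle samples carry a drug in the treatment label and were grouped by title.

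The deposited Cuffdiff test was used with a q-value threshold of 0.05 over all genes it tested (15208 to 16144 per table); the lowest deposited p-value was 5e-05. Standard errors were the size of the log2 fold change over the test statistic, divided by a per-table factor of 2.03 to 2.05 that matches the deposited p-values. Differences of effects were tested with a normal test and Benjamini-Hochberg adjustment over all genes. The arithmetic was checked on data simulated from these same standard errors, which cannot show whether the rescaled errors have the right size. Members named in full were those called in a comparison with a vehicle group, plus all Timp genes, Mmp2, Mmp9, Mmp14, Adamts1, Adamts2 and Adamts13. The members and lists were chosen with earlier results of these data known. Alternatives were an FPKM minimum of 1, q thresholds of 0.01 and 0.1, pseudocounts of 0.1 and 1, centring, and errors not rescaled. Python 3.11.15, pandas 2.3.3, numpy 2.4.6, scipy 1.17.1 and matplotlib 3.10.9 were used; gene positions came from GENCODE and promoters from RefSeq.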

Additional observations from a re-analysis of the deposited data

Results flagged for a closer look

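For 2 members the groups moved in opposite directions over the same vehicle livers, higher at the low dose and lower at the high dose of tropifexor, and the difference between the doses passed the test. For Mmp13 the effect of the high dose minus that of the low dose was -3.76 on the log2 scale (95% interval -4.45 to -3.07), and for Mmp12 it was -2.95 (-3.55 to -2.36), by a normal test with Benjamini-Hochberg adjustment over all genes. Both differences were also called with errors that were not rescaled.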

How the results depend on the processing

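Counts have no direction and a pseudocount cannot change the sign of a fold change, so these alternatives could not show a reversal. Centring on the median of all genes, a small shift, reversed 0 of 151 fold changes. Requiring at least 1 FPKM in 1 or both groups left 0 members called lower in OCA vehicle livers and 0 in tropifexor vehicle livers against lean livers, since Adamts6 lies below it, and 3 called higher at the mid dose against lean. Against lean, 12 were higher in OCA vehicle and 11 in tropifexor vehicle livers. Adamts5, Adamts9 and Adamts15 were lost from both, while Mmp19 and Timp1 were gained in 1 each. Over vehicle, 13 were lower at the mid dose, without Mmp7, Adamts5 and Adamts14. At the high dose 14 were lower, without Adamts5, Adamts14 and Adamtsl5. A q threshold of 0.1 gave 2 members lower in tropifexor vehicle livers against lean, 1 higher under OCA against its vehicle (Adamts6) and 1 lower under OCA against lean (Adamts13). A q threshold of 0.01 left 3 higher at the low dose, without Mmp11, Mmp12 and Mmp13, and 3 lower, without Adamts13 and Mmp15. With errors not rescaled, 4 members differed between high-dose tropifexor and OCA, and 2 between the high and low doses. Of 151 fold changes, 63 moved by more than their error with a pseudocount of 1 and 16 with 0.1, which shrink low genes, and 0 with centring on the median of all genes. No paired analysis was possible because the tables hold group values and their columns carry no replicate numbers; leaving out each replicate was not run for the same reason. Read depth is unknown, so a member that was not tested cannot be called absent.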
